A study of Helianthus annuus with 2 samples.

Results

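The peaks described here lie in the outer 5 Mb of the 17 sunflower chromosomes. A peak was counted when its summit fell in the first 5 Mb of a chromosome or in the last 5 Mb before the furthest peak boundary found on that chromosome in either list. This position rule used no measured height or width, and it gave 34 ends, called the left end (from position 1) and the right end of each chromosome. The ends held 10377 of 123464 peaks in the list labelled 28 DAA, and 10707 of 165079 in that labelled 13 DAA. The interior of the same chromosomes held 112038 and 152117 peaks, and the few peaks on unplaced sequences belong to neither. Because the right ends are counted back from a peak and not from the physical end of the assembly, the distance of the outermost peak is given below for left ends only.

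The peaks come from ChIP-Seq of H3K4me3, in which an antibody against this histone mark pulls down the DNA fragments that carry it, in developing seeds of sunflower (Helianthus annuus). Seeds of CAS-9, a fixed mutant line with high oleic acid, grown in growth chambers, were taken 28 days after anthesis (DAA), late in fatty acid biosynthesis, and 13 DAA, early in it. Both stages shared this mutant line, the tissue, the growth conditions and the antibody. Age is the difference the labels give, and it cannot be told apart from differences between the single libraries. There was 1 library and 1 deposited list per stage, so no spread between samples existed and no test between stages was made; the intervals below are at 95% and cover counting error only. The tissue is labelled as developing seed without parts, so embryo, seed coat and other tissues cannot be told apart. The text of the study gives the peak numbers of the lists with the stages exchanged, and the lists are therefore named by their deposited labels throughout. Were the labels exchanged, each ratio between the stages given here would turn round.

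H3K4me3 is the trimethylation of lysine 4 on histone H3. It is placed by methyltransferases of the trithorax type and sits mainly around the starts of transcribed genes. In many large plant genomes genes become more frequent toward the chromosome arms' ends, while the interior around the centromeres is rich in repeats. Genes of this assembly version were not analyzed here, so the values describe positions only.

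For each peak the lists give an interval, its summit and a fold enrichment, which is the number of fragments piled up at the summit over the number expected from the local background. The whole number of fragments at the summit and the local background behind each fold enrichment were solved with the help of the p-value for 100% of the peaks in both lists. The lowest local background, taken as the genome-wide level, was 2.3 fragments at 28 DAA and 2.1 fragments at 13 DAA. The shortest called interval, 161 bp at 28 DAA and 134 bp at 13 DAA, was assumed to be the fragment length. On that assumption the level corresponded to 143 fragments per 10 kb at 28 DAA and 157 fragments per 10 kb at 13 DAA. The libraries were of like depth by this measure, which rests on the assumed length.

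Peaks were denser in the outer 5 Mb than in the interior in both lists, and the excess was larger at 28 DAA. The ends made up 5.67% of the chromosome length and held 8.48% of the chromosomal peaks at 28 DAA and 6.58% at 13 DAA. In the list labelled 28 DAA the density was 61.0 peaks per Mb in the ends (59.9 to 62.2) and 39.6 peaks per Mb in the interior (39.4 to 39.8), a ratio of 1.54 (1.51 to 1.57). In the list labelled 13 DAA it was 63.0 peaks per Mb in the ends (61.8 to 64.2) and 53.8 peaks per Mb in the interior (53.5 to 54.0), a ratio of 1.17 (1.15 to 1.19). The length covered by peaks gave the same order. It came to 2.34% of the ends and 1.48% of the interior at 28 DAA, and to 1.5% of the ends and 1.19% of the interior at 13 DAA.

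Per chromosome, with both ends pooled, the density at 28 DAA was higher in the ends than in the interior on 17 of 17 chromosomes, with ratios from 1.15 on chromosome 13 to 1.94 on chromosome 4. In the list labelled 13 DAA it was higher on 16 of 17 chromosomes, with ratios from 0.826 on chromosome 13 to 1.33 on chromosome 4. Chromosomes 13 and 4 thus stood at the same places of the order in both lists. Taken one by one, 30 of 34 ends at 28 DAA and 27 of 34 ends at 13 DAA were denser than the interior of their own chromosome. Both ends were denser on 13 chromosomes at 28 DAA and on 11 chromosomes at 13 DAA.

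Over all calls, the peak numbers of the stages were closer to each other in the ends than in the interior. There were 0.969 peaks at 28 DAA for each peak at 13 DAA in the ends (0.943 to 0.996), against 0.737 in the interior (0.731 to 0.742). The covered length was 1.56 times as large at 28 DAA as at 13 DAA in the ends and 1.24 times as large in the interior. The order of the stages in the ends depended on the threshold. Only peaks with a q-value of at most 1e-10 numbered 7979 at 28 DAA and 3178 at 13 DAA, and with the same number of strongest peaks taken from both lists the ends held 10377 and 8235 of them. The interior held 85154 and 37442 peaks at the q limit, and 112038 and 113456 with equal numbers. Under these limits the numbers of the stages were therefore not closer in the ends than in the interior.

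The 34 ends differed widely among themselves. At 28 DAA an end held from 95 to 483 peaks, with a median of 294.5 and quartiles of 252 and 376. An end at 13 DAA held from 195 to 414 peaks, with a median of 310 and quartiles of 288 and 352. The spread was wider than counting error at many ends. The interval of an end's count excluded the median over ends at 21 of 34 ends at 28 DAA (12 above and 9 below) and at 15 of 34 ends at 13 DAA (9 above and 6 below). The standard deviation over the ends was 0.319 of the mean at 28 DAA and 0.179 of the mean at 13 DAA.

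**Figure D1:**
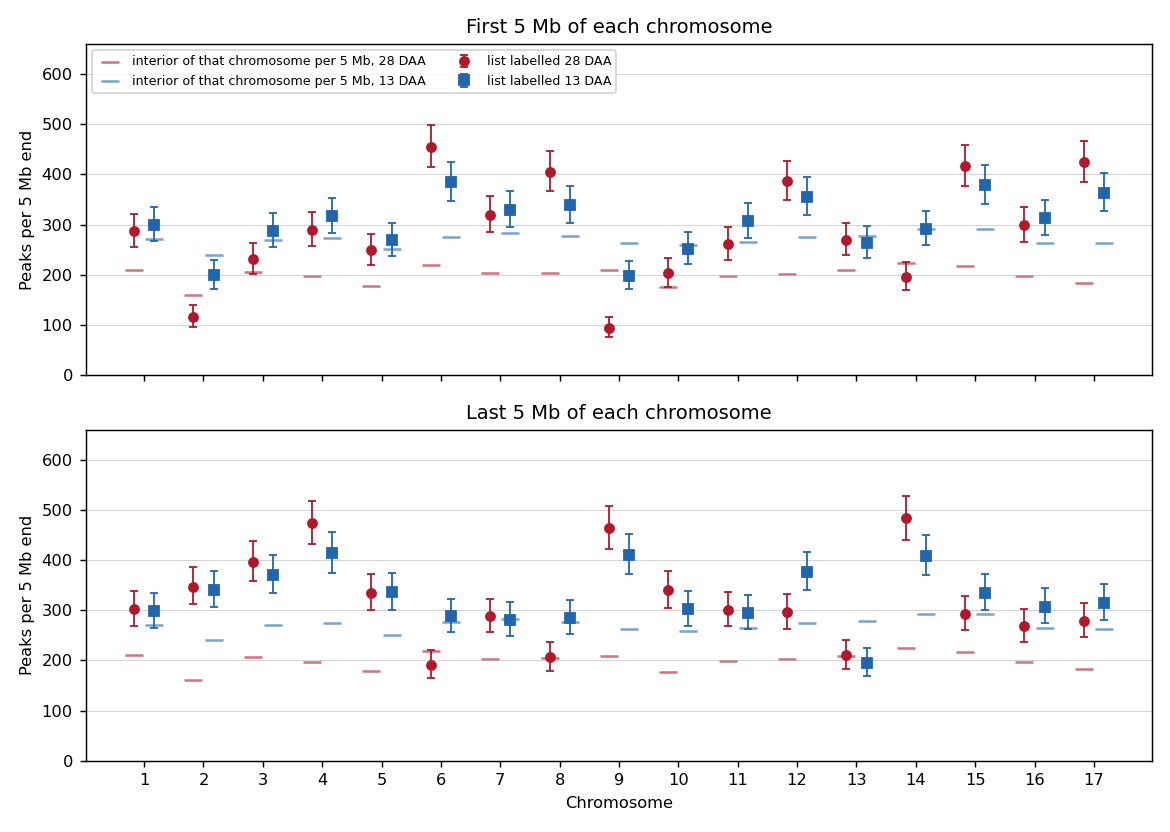
Peaks in the first 5 Mb (upper panel) and last 5 Mb (lower panel) of each chromosome, in the list labelled 28 DAA (red circles) and the list labelled 13 DAA (blue squares), with 95% Poisson intervals, and short lines for the interior of that chromosome scaled to 5 Mb. Most ends stand above their interior line, while the left ends of chromosomes 2 and 9 stand below it in both lists, with 116 and 95 peaks at 28 DAA and 199 and 198 peaks at 13 DAA.

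The same 3 ends led both lists. The right end of chromosome 14 held 483 peaks at 28 DAA (441 to 528) and 408 peaks at 13 DAA (369 to 450). The right end of chromosome 4 held 474 peaks at 28 DAA (432 to 519) and 414 peaks at 13 DAA (375 to 456). The right end of chromosome 9 held 463 peaks at 28 DAA (422 to 507) and 410 peaks at 13 DAA (371 to 452). The intervals of these 3 overlapped within each list, so their order among themselves is not resolved. Of the 10 ends with the most peaks, 9 were shared between the lists.

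The poorest ends were also largely shared. The left end of chromosome 9 held 95 peaks at 28 DAA (76.9 to 116) and 198 peaks at 13 DAA (171 to 228). The left end of chromosome 2 held 116 peaks at 28 DAA (95.9 to 139) and 199 peaks at 13 DAA (172 to 229). These ends were below the interior of their chromosome in both lists, at 0.453 and 0.723 of its density at 28 DAA and at 0.752 and 0.829 of it at 13 DAA. The left end of chromosome 14 was below as well, with 0.875 of the interior density at 28 DAA and 0.997 at 13 DAA, but in both lists the interior value lay within the interval of the end's count.

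The right end of chromosome 6 was among the 3 poorest at 28 DAA with 191 peaks (165 to 220), against 288 peaks at 13 DAA (256 to 323). The right end of chromosome 13 was low in both lists: it held 211 peaks at 28 DAA (183 to 241), below the median over ends, and was the poorest at 13 DAA with 195 peaks (169 to 224). At 28 DAA that end equalled its interior, with a ratio of 1.01, whereas at 13 DAA it reached 0.701 of its interior.

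The opposite ends of a chromosome were often unlike. Their intervals did not overlap on 12 of 17 chromosomes at 28 DAA and on 7 of 17 at 13 DAA. The largest contrast was on chromosome 9, where the right end held 4.87 times the peaks of the left end at 28 DAA and 2.07 times at 13 DAA. The side itself gave no such contrast. The right end was the richer on 9 of 17 chromosomes at 28 DAA and on 8 of 17 at 13 DAA, and the summed counts were 5473 on the right and 4904 on the left at 28 DAA and 5558 on the right and 5149 on the left at 13 DAA.

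The ends that were rich in 1 list were rich in the other. Over the 34 ends, the counts of the lists had a Pearson r of 0.905 and a Spearman rho of 0.882. These are descriptions over ends that share the genome assembly and its gaps, and over the interior windows of 5 Mb the rho was 0.822. The ends were further apart from each other at 28 DAA, since the richest held 5.08 times the peaks of the poorest, against 2.12 times at 13 DAA.

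At single ends the number of peaks at 28 DAA over that at 13 DAA ran from 0.480 to 1.19, with a median of 0.985. It was highest at the left end of chromosome 8, with 1.19 (1.03 to 1.38; 405 and 339 peaks). Next were the left end of chromosome 6, with 1.18 (1.03 to 1.36; 455 and 384 peaks), and the right end of chromosome 14, with 1.18 (1.04 to 1.35). It was lowest at the left end of chromosome 9, with 0.480 (0.372 to 0.616), the left end of chromosome 2, with 0.583 (0.460 to 0.737), and the right end of chromosome 6, with 0.663 (0.549 to 0.799). The interval lay above 1 at 5 ends, below 1 at 8 ends and held 1 at 21 ends. The ratio was above that of the own interior at 29 of 34 ends.

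For a comparison at equal length, the interior was divided into 555 windows of 5 Mb. At 28 DAA the median was 294.5 peaks per end and 182 peaks per window, and 32 of 34 ends were above the window median. Of the ends, 4 held more than the richest window, which had 445 peaks: the right ends of chromosomes 14, 4 and 9 and the left end of chromosome 6. At 13 DAA the median was 310 peaks per end and 264 peaks per window, 29 of 34 ends were above the window median, and 0 ends exceeded the richest window, which had 446 peaks. Peaks at 28 DAA outnumbered those at 13 DAA in 16 of 34 ends (47.1%) and in 32 of 555 windows (5.77%).

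**Figure D2:**
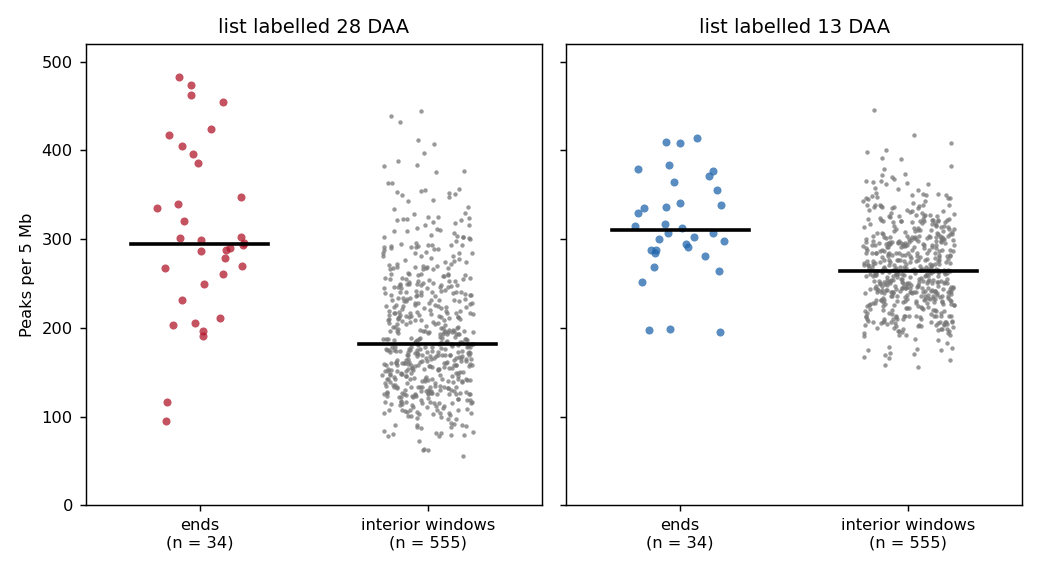
Peaks per 5 Mb in the 34 ends (coloured points) and in 555 interior windows (grey points), for the list labelled 28 DAA (left panel) and the list labelled 13 DAA (right panel), with black lines at the medians. The ends sit higher than the windows in both lists, with medians of 294.5 and 182 at 28 DAA and of 310 and 264 at 13 DAA, and 4 ends at 28 DAA lie above every window.

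The ratio between stages also rose with the number of peaks in the interior, so ends and windows were set side by side within classes of their 28 DAA count, a grouping that uses the numerator of the ratio itself. With under 200 peaks at 28 DAA, the ratio of 28 DAA to 13 DAA peaks was 0.613 in 4 ends and 0.610 in 323 windows. From 200 to 299 peaks it was 0.892 in 15 ends and 0.822 in 181 windows, and from 300 peaks upward it was 1.10 in 15 ends and 0.997 in 51 windows. Within these classes the ends were thus closer to the windows than in the pooled comparison.

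Along the outer 5 Mb the density at 28 DAA was fairly even and then declined inward. In steps of 1 Mb from the end it was 62.0, 65.2, 61.9, 59.3 and 56.7 peaks per Mb at 28 DAA, and 51.9 peaks per Mb between 5 and 10 Mb. It went on down to 38.3 peaks per Mb between 45 and 50 Mb. At 13 DAA the same steps gave 65.0, 63.2, 62.6, 63.1 and 61.1 peaks per Mb, then 58.2 peaks per Mb between 5 and 10 Mb and 53.2 peaks per Mb between 45 and 50 Mb. No step stood out at 5 Mb, which is a limit set by the rule and not seen in the data.

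**Figure D3:**
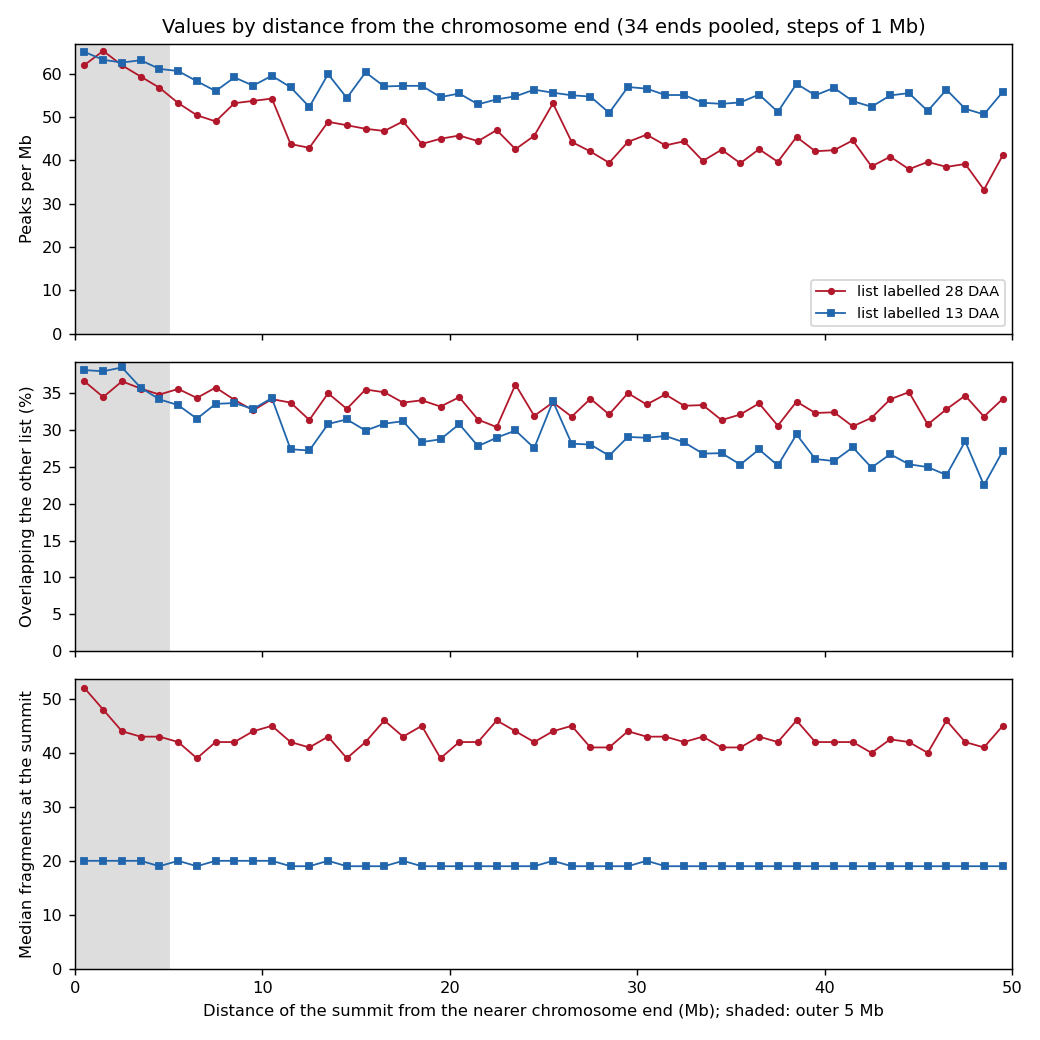
Peaks per Mb, share of peaks overlapping the other list and median fragments at the summit, against the distance of the summit from the nearer chromosome end in steps of 1 Mb, all ends pooled, for the list labelled 28 DAA (red) and the list labelled 13 DAA (blue), with the outer 5 Mb shaded. Density falls inward in both lists and more so at 28 DAA, and the median of summit fragments at 28 DAA is highest in the outermost step, at 52.

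The outermost 1 Mb varied widely between ends. It held from 7 peaks (left end of chromosome 2) to 139 peaks (right end of chromosome 4) at 28 DAA, with a median of 53.5 over ends. At 13 DAA it held from 36 to 119 peaks at the same ends, with a median of 64.0. On the left ends, the summit nearest to position 1 lay between 0.699 kb (chromosome 11) and 278 kb (chromosome 14) at 28 DAA, with a median of 38.0 kb. The range at 13 DAA was between 0.236 kb (chromosome 9) and 92.0 kb (chromosome 2), with a median of 12.2 kb. Some chromosomes therefore carried called peaks within the first kb of assembled sequence.

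In shape, peaks of the ends were close to those of the interior. The median width at 28 DAA was 287 bp in the ends (quartiles 204 and 466) and 282 bp in the interior (202 and 452). At 13 DAA it was 192 bp in the ends (151 and 270.5) and 186 bp in the interior (149 and 253). The median was wider at 28 DAA than at 13 DAA in 34 of 34 ends, so the difference in width between the lists ran through all ends. The covered length was larger at 28 DAA in 32 of 34 ends.

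The median fold enrichment at 28 DAA was 5.76 in the ends and 5.93 in the interior, and at 13 DAA it was 5.16 in the ends and 5.15 in the interior. Summit fragments had a median of 46 in the ends and 43 in the interior at 28 DAA, and of 20 in the ends and 19 in the interior at 13 DAA. For the local background the medians were 7.12 fragments in the ends and 6.31 fragments in the interior at 28 DAA, and 2.80 and 2.72 fragments at 13 DAA. At 28 DAA the peaks of the ends were thus slightly higher in fragments and slightly lower in fold enrichment, over a higher background. A local background taken from the same library includes fragments of neighbouring peaks. It is then no independent level of noise where peaks are dense, and its part in these differences was not tested. The rise in fragments lay in the outermost part, where the median was 52 fragments in the first Mb and 48 in the next, against 43 between 4 and 5 Mb. At single ends the median ran from 35 fragments (left end of chromosome 10) to 61 fragments (right end of chromosome 12) at 28 DAA, and from 19 to 24 fragments at 13 DAA, again with the right end of chromosome 12 highest.

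Peaks with a q-value of at most 1e-10 made up 76.9% of the end peaks (76.1% to 77.7%) and 76.0% of the interior peaks (75.8% to 76.3%) at 28 DAA, against a background of 76.1% over the chromosomes. At 13 DAA they made up 29.7% of the end peaks (28.8% to 30.6%) and 24.6% of the interior peaks (24.4% to 24.8%), against a background of 24.9%. The share of such calls was therefore near the background at 28 DAA and above it at 13 DAA. Limited to these strong calls, the density in the ends was 1.56 times (1.52 to 1.60) that of the interior at 28 DAA and 1.41 times (1.36 to 1.46) at 13 DAA.

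Peaks wider than 1000 bp numbered 406 in the ends at 28 DAA, or 3.91% (3.56% to 4.30%), and 3864 in the interior, or 3.45% (3.34% to 3.56%). The background over the chromosomes was 3.49%. Each of the 34 ends held at least 2 of them, and the right end of chromosome 9 held the most, 25. At 13 DAA there were 45 in the ends, or 0.420% (0.314% to 0.562%), and 184 in the interior, or 0.121% (0.105% to 0.140%), against a background of 0.141%. They lay in 15 of 34 ends only, and for 29 of the 45 the local background exceeded the 99th percentile in that list. Without peaks of such background the shares at 13 DAA were 0.154% in the ends (16 peaks) and 0.0962% in the interior (145 peaks).

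Sharing between the stages set the ends apart from the interior mainly at 13 DAA. A peak was counted as overlapping when it had at least 1 bp in common with a peak of the other list. At 28 DAA this held for 35.6% of the end peaks (34.7% to 36.5%; 3694 peaks) and 33.4% of the interior peaks (33.1% to 33.7%), beside a background of 33.6%. Of the 13 DAA peaks it held for 36.9% in the ends (36.0% to 37.8%; 3950 peaks) and 26.4% in the interior (26.2% to 26.6%), beside a background of 27.1%. The share was above that of the own interior in 23 of 34 ends at 28 DAA and in 29 of 34 ends at 13 DAA.

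Whether a 13 DAA peak overlaps depends on the 28 DAA list, which was itself denser in the ends. The split below is therefore not independent of that density. Over all calls, the excess density of the ends at 13 DAA lay in the overlapping peaks. Their density was 23.2 peaks per Mb in the ends and 14.2 peaks per Mb in the interior, a ratio of 1.64 (1.58 to 1.69), while peaks with no overlap were as dense in the ends (39.7 per Mb) as in the interior (39.6 per Mb), with a ratio of 1.00 (0.980 to 1.03). At 28 DAA both kinds were denser in the ends, with ratios of 1.64 (1.59 to 1.70) for overlapping peaks and 1.49 (1.45 to 1.53) for the rest. Among the peaks with no overlap, those with a q-value of at most 1e-10 had ratios of 1.5 (1.46 to 1.54) at 28 DAA and 1.09 (1.03 to 1.16) at 13 DAA, so at 13 DAA the strong unshared peaks were somewhat denser in the ends.

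Among single ends, the overlap at 13 DAA was highest at the right end of chromosome 4, with 52.4% (47.6% to 57.2%), and lowest at the left end of chromosome 9, with 17.7% (13.0% to 23.6%). These were the richest end of that list and one of its poorest. At 28 DAA it ran from 28.1% (23.1% to 33.8%) at the left end of chromosome 13 to 49.7% (44.0% to 55.3%) at the right end of chromosome 12. The interior window nearest to the latter, from 155000001 to 160000000, had 48.8% at 28 DAA. By distance from the end, the share at 13 DAA was 38.1% in the first Mb and 34.1% between 4 and 5 Mb. Further in it was 33.0% between 5 and 10 Mb, 30.3% between 10 and 15 Mb and 25.4% between 45 and 50 Mb. At 28 DAA it was 36.6%, 34.8%, 34.4%, 33.5% and 32.9% over the same steps. The interior next to the ends was thus close to them in this share.

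The overlap varied with the strength of a peak, and the comparison was therefore repeated within deciles of the p-value of each list. At 13 DAA the share was higher in the ends than in the interior in 10 of 10 deciles, with intervals that did not overlap in 10 of 10. It was 16.4% in the ends and 10.4% in the interior for the weakest decile, and 80.3% in the ends and 72.8% in the interior for the strongest. At 28 DAA it was higher in the ends in 10 of 10 deciles too, but the intervals were apart in 2 of 10 only. There the share did not rise steadily with strength. It was 34.7% in the ends and 33.0% in the interior for the weakest decile, 22.6% and 20.6% for decile 5, and 83.6% and 81.9% for the strongest.

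**Figure D4:**
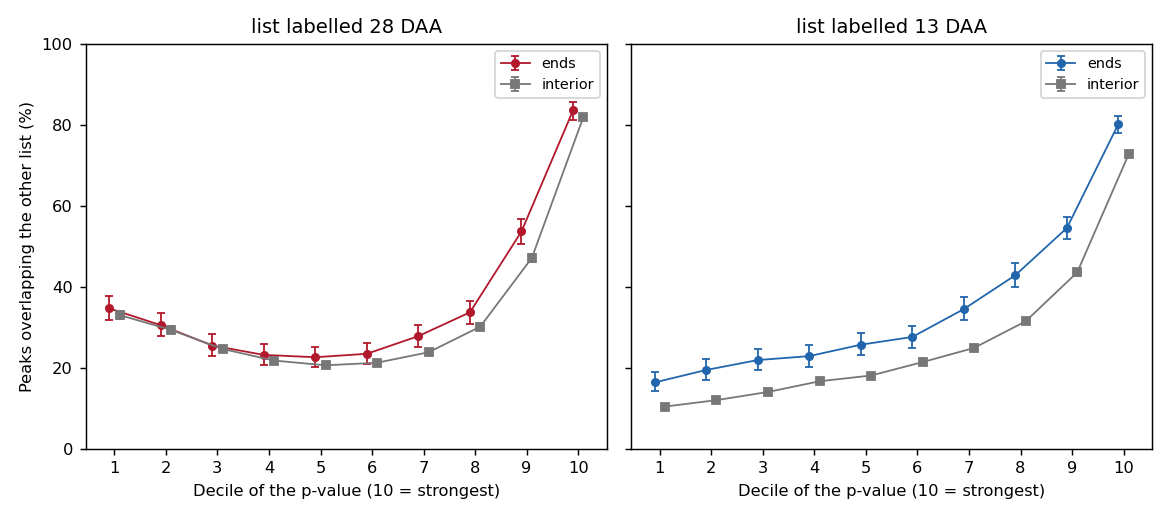
Share of peaks that overlap the other list, by decile of the p-value within the list labelled 28 DAA (left panel) and the list labelled 13 DAA (right panel), in the ends (coloured) and the interior (grey), with 95% Wilson intervals. At 13 DAA the ends lie above the interior in every decile, from 16.4% against 10.4% in the weakest to 80.3% against 72.8% in the strongest, whereas at 28 DAA the curves nearly coincide in the weaker deciles.

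The ends also held more peaks of the other list to overlap with. Within 50 kb of an end peak, not counting the overlap itself, the median number of peaks of the other list was 8 at 28 DAA, against 6 for interior peaks, and 7 at 13 DAA, against 4 for interior peaks. In classes of this number at 13 DAA, the overlap was higher in the ends with intervals apart in 4 of 5 classes, reaching 51.7% in the ends and 44.6% in the interior with 10 or more neighbours. With 0 neighbours it was 6.21% (4.63% to 8.29%) in the ends and 6.71% (6.37% to 7.08%) in the interior. At 28 DAA it was higher in the ends in 3 of 5 classes, with intervals apart in 0 of 5.

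Where a 28 DAA peak and a 13 DAA peak did overlap, their relation was much the same in the ends and in the interior. The ends held 4011 such pairs and the interior 40467. The 28 DAA interval was the wider in 81.9% of pairs in the ends (80.7% to 83.1%) and in 82.1% in the interior (81.7% to 82.5%), with a median width ratio of 1.68 in the ends and 1.72 in the interior. Scaled to the genome-wide level of each list, the 28 DAA summit held more fragments in 81.0% of pairs in the ends (79.7% to 82.2%) and in 80.6% in the interior (80.2% to 81.0%). The summits lay a median of 47 bp apart in the ends and 45 bp apart in the interior. The overlapping peaks of the ends had medians of 72 fragments at 28 DAA and 23 fragments at 13 DAA, against 63 and 23 fragments in the interior.

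Peaks in the ends stood closer together. The median gap between neighbouring peaks was 5384 bp in the ends and 6486 bp in the interior at 28 DAA, and 8999 bp in the ends and 10993 bp in the interior at 13 DAA. Gaps over 100 kb took up 25.9% of the ends and 43.0% of the interior at 28 DAA, but 6.89% of the ends and 8.46% of the interior at 13 DAA. Long stretches with no peak were thus less of the ends than of the interior, mainly at 28 DAA. The longest stretch of an end with no peak in either list lay at the right end of chromosome 8, from 151149243 to 151374918 (226 kb), followed by one at the left end of chromosome 16, from 970440 to 1143227 (173 kb).

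When peaks less than 1000 bp apart were joined, groups of 3 or more numbered 4.01 per Mb in the ends and 2.63 per Mb in the interior at 28 DAA, and 1.27 per Mb in the ends and 0.643 per Mb in the interior at 13 DAA. The number of peaks per group was 1.45 in the ends and 1.44 in the interior at 28 DAA, and 1.16 in the ends and 1.12 in the interior at 13 DAA. At 28 DAA, then, the ends had more groups rather than larger ones.

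Of the 100 highest folds on the chromosomes, 6 lay in the ends at 28 DAA (2.78% to 12.5%) and 7 at 13 DAA (3.43% to 13.8%), beside 8.48% and 6.58% of all chromosomal peaks. Of the 1000 highest, 7.9% lay in the ends at 28 DAA (6.38% to 9.74%) and 9.0% at 13 DAA (7.38% to 10.9%), and of the 10000 highest 7.62% at 28 DAA (7.12% to 8.16%) and 8.17% at 13 DAA (7.65% to 8.72%). The longer lists of high folds thus held a lower share of end peaks than all peaks did at 28 DAA, with intervals apart for the 10000 highest, and a higher share at 13 DAA. At 28 DAA the highest fold in the ends was 27.8, at chromosome 17 from 212917803 to 212918179. This peak had 102 fragments (83.2 to 124) over a background of 2.70, was the 6th highest on the chromosomes and overlapped no peak at 13 DAA. The next were 27.1 at chromosome 2 from 4795052 to 4795508, with 110 fragments, and 26.1 at chromosome 7 from 100422552 to 100422907, with 93 fragments. The peak on chromosome 2 overlapped a 13 DAA peak of fold 5.81 with 17 fragments, and that on chromosome 7 overlapped none.

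At 13 DAA the highest fold in the ends was also the highest on all chromosomes. It stood at chromosome 12 from 163552781 to 163553062. At this place the 28 DAA peak had 54 fragments (40.6 to 70.5) and a fold of 12.4 over a background of 3.45, and the 13 DAA peak had 75 fragments (59.0 to 94.0) and a fold of 24.5 over the genome-wide background of 2.1. At chromosome 13 from 193296213 to 193296562 the 28 DAA peak had 69 fragments and a fold of 8.75 over a background of 7.0, and the 13 DAA peak, next in fold, had 60 fragments and a fold of 19.7 over the genome-wide background. At chromosome 6 from 103593628 to 103594227, where the list labelled 28 DAA had no overlapping peak, the 13 DAA peak had 52 fragments and a fold of 15.8.

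By summit fragments, the leading 28 DAA peaks of the ends were shared between the lists. The peak at chromosome 12 from 3815886 to 3817444 had 235 fragments (206 to 267) at 28 DAA, against 111 fragments (91.3 to 134) in its 13 DAA counterpart. The peak at chromosome 17 from 212592203 to 212594318 had 228 fragments (199 to 260) at 28 DAA, against 70 fragments (54.6 to 88.4) at 13 DAA. The peak at chromosome 4 from 4653806 to 4654624 had 218 fragments (190 to 249) at 28 DAA, against 78 fragments (61.7 to 97.3) at 13 DAA. Each of the 3 had more fragments in the list labelled 28 DAA, with intervals apart. These peaks were picked for their 28 DAA fragments, which favours this order, and the intervals do not cover that choice. Their widths of 1559, 2116 and 819 bp at 28 DAA also exceeded the 1313, 584 and 429 bp of the 13 DAA intervals.

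The leading 13 DAA peaks by fragments were of another kind, with a low fold over a very high local background. At chromosome 14 from 2680574 to 2680721 the overlapping 28 DAA peak had 124 fragments over a background of 64.5, and the 13 DAA peak had 167 fragments over a background of 97.1, a fold of 1.71. At chromosome 9 from 121020 to 121646 there were 126 fragments over a background of 57.7 at 28 DAA and 165 fragments over 86.4 at 13 DAA. At chromosome 12 from 165887674 to 165888366 there were 127 fragments over a background of 50.9 at 28 DAA and 164 fragments over 74.2 at 13 DAA. Of the 100 peaks with the most fragments on the chromosomes, 7 lay in the ends at 28 DAA (3.43% to 13.8%), on 7 chromosomes, and 54 at 13 DAA (44.3% to 63.4%), on 4 chromosomes.

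The widest intervals of the ends lay at different places in each list, with the left end of chromosome 14 represented in both. At 28 DAA they measured 2820 bp at chromosome 14 from 3081823 to 3084642, 2374 bp at chromosome 12 from 166261482 to 166263855 and 2214 bp at chromosome 2 from 178915165 to 178917378. At 13 DAA they measured 2934 bp at chromosome 2 from 2600686 to 2603619, 2921 bp at chromosome 14 from 2981993 to 2984913 and 2851 bp at chromosome 14 from 2953204 to 2956054. Each of these 6 overlapped at least 2 peaks of the other list. Their fold enrichments were modest, from 3.77 to 3.95 at 28 DAA and from 3.22 to 4.33 at 13 DAA.

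Part of the high backgrounds stood in runs of neighbouring peaks, which were looked for after the values had been seen. A background above the 99th percentile of its list (29.4 fragments at 28 DAA and 8.21 fragments at 13 DAA) was found at 217 end peaks, or 2.09% (1.83% to 2.38%), and 0.900% of interior peaks (0.846% to 0.957%) at 28 DAA. At 13 DAA it was found at 310 end peaks, or 2.90% (2.59% to 3.23%), and 0.867% of interior peaks (0.822% to 0.915%). Such runs were looked for in the ends only, so no number for the interior stands beside theirs. Runs of at least 5 such 13 DAA peaks, with gaps of at most 100 kb, numbered 13 in the ends. They held 111 of the 217 such end peaks at 28 DAA and 225 of the 310 at 13 DAA. High-background peaks occurred in 28 of 34 ends in each list, with 112 of them at 28 DAA and 139 at 13 DAA outside the right end of chromosome 12 and the left end of chromosome 14. The runs were picked on the 13 DAA background, which favours high 13 DAA values inside them. Runs picked by the same rule on the 28 DAA background numbered 8, and the median background was lower at 28 DAA than at 13 DAA in 6 of these and higher in 2, while over all end peaks it was higher at 28 DAA.

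The largest of these stretches ran at the right end of chromosome 12 from 161563624 to 161969914 (406 kb). It held 67 peaks at 28 DAA, with a median background of 36.0 fragments and a median fold of 2.22, and 84 peaks at 13 DAA, with a median background of 59.0 fragments and a median fold of 2.01. The highest background there was 28.0 times the genome-wide level at 28 DAA and 45.2 times that level at 13 DAA. The left end of chromosome 14 held the next in peak number, from 2812688 to 3084689 (272 kb), with 35 peaks over a median background of 28.9 fragments at 28 DAA and 43 peaks over 50.7 fragments at 13 DAA. Another at that end, from 2639799 to 2703075, had 16 peaks over 38.9 fragments at 28 DAA and 20 peaks over 64.5 fragments at 13 DAA. The sequence of these stretches was not analyzed here, and the part of the local background in the counts above was not tested beyond the values that follow.

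**Figure D5:**
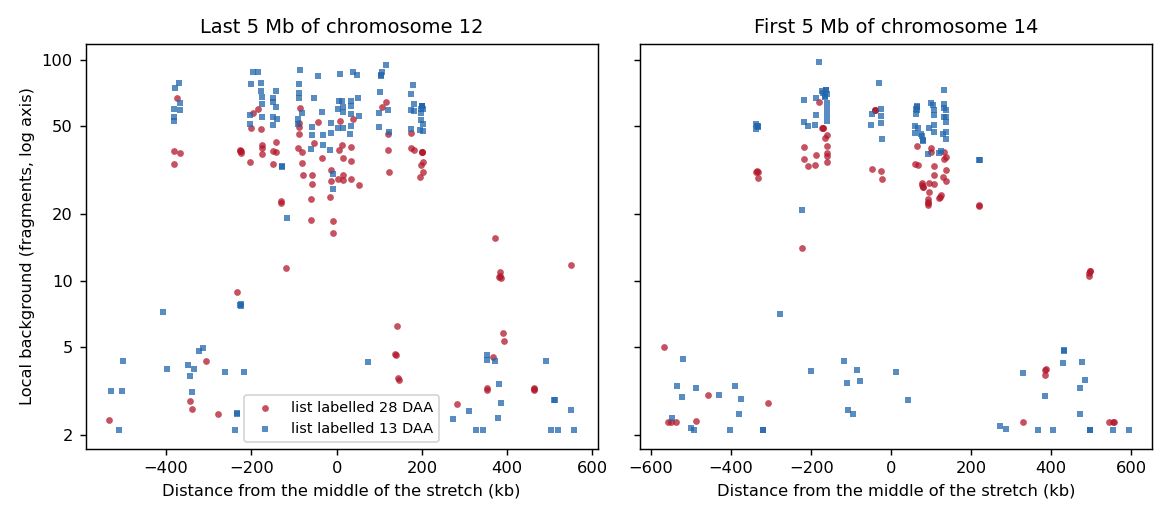
Local background of each peak (fragments, log axis) against its position (kb), in the list labelled 28 DAA (red) and the list labelled 13 DAA (blue). The left panel is centred on the middle of the largest stretch, at the right end of chromosome 12. The right panel is centred midway between 2639799 and 3084689 at the left end of chromosome 14, a span that holds separate stretches. The right end of chromosome 12 starts at 161485822, so the leftmost points of its panel are interior peaks. Among these, the 13 DAA peaks from -381 to -368 kb had backgrounds of 52.5 to 78.2 fragments. The stretches were picked on the 13 DAA background, and inside them the 28 DAA peaks sit mostly below the 13 DAA peaks, with medians of 36.0 and 59.0 fragments on chromosome 12, while outside most peaks of both lists have far lower values.

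These stretches touched some of the values above and not others. High-background peaks were 66 of 296 peaks at 28 DAA and 101 of 377 peaks at 13 DAA in the right end of chromosome 12, and 39 of 196 peaks at 28 DAA and 70 of 291 peaks at 13 DAA in the left end of chromosome 14. Without them the median of summit fragments was 50.5 at 28 DAA in the right end of chromosome 12, against 61 with them, and 42 in the left end of chromosome 14, against 57 with them. Of the end peaks with over 50 fragments, 217 of 4743 were in high background at 28 DAA and 239 of 333 at 13 DAA. The density ratio of ends to interior changed little without them, to 1.52 at 28 DAA and 1.15 at 13 DAA, and the overlap at 13 DAA was 35.6% in the ends and 25.8% in the interior.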

How the data were processed

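H3K4me3 ChIP-Seq peaks of sunflower seeds were analyzed from the lists deposited by the authors, 1 for 28 DAA and 1 for 13 DAA, each from 1 library. Per the methods of the study, reads were filtered with FASTX-Toolkit, aligned with BWA-MEM to the XRQ assembly, cleared of duplicates with Picard MarkDuplicates and passed to MACS2. An input control and the pooling of immunoprecipitations are not given in the sources used here. The score deposited by the authors is 10 times the −log10 q-value, rounded down. The fold enrichment deposited by the authors is the ratio of summit to local background. Each p-value and each q-value is on the −log10 scale as deposited. Interval bounds and summits are positions in bp, printed here counted from 1.

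Summit fragments and local background were solved from the fold enrichment and p-value, assuming a Poisson model and a pseudocount of 1, with a tolerance of 0.001 on −log10 p. Precision is given by 95% Poisson, conditional binomial or Wilson intervals. No p-value was computed. The code was tested on simulated data. The work was done in Python 3.11.15 with pandas 2.3.3, scipy 1.17.1 and numpy 2.4.6, and plots were drawn with matplotlib 3.10.9.

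The region rule, the comparisons and the alternatives were chosen with earlier results of these data known. The text names, in each list, the 3 ends with the most and the fewest peaks, the 3 with the highest and lowest ratio between stages, and the 3 end peaks highest in fold, width and fragments, with the outermost summits and the longest empty stretch. Other ends or stretches were chosen after their values were seen. The alternatives were ends of 2 or 10 Mb, a q-value of at most 1e-10, equal numbers of strongest peaks, whole intervals inside the end, other overlap rules, and 2 other comparisons for the density. Genes and sequence of the XRQ version in the lists were not analyzed here.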

Additional observations from a re-analysis of the deposited data

How the results depend on the processing

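No paired analysis was possible because each stage had a single library. The direction of the ends against the interior in density held under each alternative run. Ratios of density at 28 DAA and 13 DAA were 1.46 and 1.13 with ends of 10 Mb, 1.58 at 28 DAA with ends of 2 Mb, 1.5 at 28 DAA as the median over chromosomes, and 1.18 and 1.08 against only the next 5 Mb inward. The ratio of 28 DAA to 13 DAA peaks in the ends turned round, to 2.51 at the q limit of 1e-10 and 1.26 with equal numbers of strongest peaks, and was 0.932 with ends of 10 Mb. The turn at the q limit was not particular to the ends, since the interior then held 85154 and 37442 peaks. With equal numbers the interior held 112038 and 113456.

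With ends of 2 Mb there were 4326 and 4358 peaks, with 50 fragments, 294 bp and 77.7% of strong calls at 28 DAA and 38.0% overlap at 13 DAA. With ends of 10 Mb there were 19198 and 20606 peaks, with 44 fragments at 28 DAA and, at 13 DAA, 35.0% overlap and 0.301% over 1000 bp. Among end peaks with q at or below 1e-10, medians were a fold of 6.54 and 6.78, 57 and 27 fragments and 338 and 272 bp. Both lists were limited before the overlap was counted, so each share also depends on the peaks left in the other list. The overlap was 21.3% and 55.9% in the ends and 19.2% and 45.9% in the interior. Peaks over 1000 bp made up 5.09% and 1.35% in the ends and 4.54% and 0.470% in the interior. At 13 DAA 3178 end peaks were left, with a density ratio of 1.41. With equal numbers, the overlap of the limited lists was 31.6% and 42.2% in the ends and 29.8% and 31.3% in the interior. At 13 DAA the density ratio was then 1.21, the fold 5.49, fragments 21, width 206 bp and strong calls 38.6%. An overlap of 50% of both intervals gave 19.9% and 19.2%, and a summit inside the other interval 31.4% and 35.0%.

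Leaving out high-background peaks, an alternative chosen after seeing the data, moved the overlap in the ends to 34% and 35.6%, beside 32.8% and 25.8% in the interior. At 13 DAA it moved the density ratio to 1.15 and the share over 1000 bp to 0.154%. Also chosen after seeing the data, the q limit of 1e-10 moved the density ratio of peaks with no overlap to 1.09 at 13 DAA, against 1.00 for all of them. A length without runs of unknown bases was not run. Counting error limits the poorest ends most, such as the left end of chromosome 9 with 95 peaks (76.9 to 116) at 28 DAA.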
